A study of Mus musculus with 9 samples.

Results

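Translation initiation and elongation factors were followed in RNA of the mouse central nervous system at 3 stages: embryonic days E9.5 and E14.5, and day P60 after birth. The members were the protein-coding genes whose symbol starts with Eif or Eef followed by a digit from 1 to 6, without the Y-linked Eif2s3y. They numbered 66 of the 45706 gene identifiers in the deposited count table, and 64 of them had enough reads to be tested. All mice were of the C57BL6/J strain with no treatment listed, apart from the anaesthesia and the saline perfusion that preceded removal of the P60 tissue. E9.5 material was the head severed behind the fourth ventricle and cleared of surplus tissue outside the neuroectoderm, E14.5 material was brain freed of meninges, and P60 material was adult brain. Each stage had 3 libraries. The labels do not say whether these came from separate animals or from pooled embryos, and p-values therefore cover only how much these libraries vary, part of which may be technical. Tissue was whole, so the libraries mix all cell types of each stage.

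As background, translation starts when the cap-binding complex eIF4F (eIF4E, the scaffold eIF4G and the helicase eIF4A) recruits a small ribosomal subunit that carries eIF3, eIF1, eIF1A, eIF5 and the ternary complex of eIF2, GTP and initiator tRNA. Exchange of GDP on eIF2 by eIF2B sets how often this can happen, and kinases that phosphorylate eIF2 block that exchange under stress. eEF1A then delivers each aminoacyl-tRNA, the eEF1B subunits reload eEF1A with GTP, and eEF2 moves the ribosome by a codon. Several factors exist as pairs of related genes, of which the eEF1A pair is the best known in brain: eEF1A1 is found in most cells, and eEF1A2 replaces it in mature neurons and in muscle.

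The libraries held 30481975 to 35619093 counts, and CPM below means counts divided by the TMM-scaled library total in units of 1e6. Levels are compared between genes only per kilobase of transcript. Libraries of a stage were not equally alike. E14.5 library 1 and P60 library 2 stood apart from the other libraries of their stage, with a chi-square over degrees of freedom of 84.8 to 148 against 3.83 to 37.5 for the remaining same-stage pairs. Among the latter, E9.5 library 1 gave 35.15 and 37.45 with E9.5 libraries 2 and 3, which gave 3.83 with each other. In E14.5 library 1, genes with transcripts under 2 kb deviated from the stage mean by a median of 0.25 log2 units and genes over 6 kb by -0.35, and in P60 library 2 these values were -0.19 and 0.39. P60 library 3 deviated the other way, by 0.159 and -0.295. Summed CPM of 5 neuron markers, all detected in every library, was 153 to 196 at E9.5, 3300 to 4710 at E14.5 and 5230 to 5790 at P60. Summed CPM of 3 dividing-cell markers, also detected throughout, was 1810 to 1970 at E9.5, 549 to 613 at E14.5 and 2.74 to 3.38 at P60. Summed CPM of 3 oligodendrocyte markers was 46.7 to 52.6 at E9.5, 42.3 to 64.6 at E14.5 and 10300 to 12100 at P60. For 4 mesenchyme markers the sum was 521 to 669 CPM at E9.5, 303 to 625 CPM at E14.5 and 12.4 to 18.9 CPM at P60. Of 5 striated muscle markers, Actc1 and Myl7 were at 0 in at least 1 library, and the sum was 320 CPM in E9.5 library 1 against 5.17 and 5.58 CPM in the other E9.5 libraries. In whole tissue, fewer cells of a type and less RNA of a gene per cell cannot be told apart, and the part of these markers in the results below was not tested.

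The translation factor genes took a smaller share of all counts at each later stage. They held 3.16, 3.01 and 2.97% of counts in the E9.5 libraries, 2.24, 1.97 and 1.98% in the E14.5 libraries, and 1.64, 1.39 and 1.70% in the P60 libraries. No library of a stage overlapped with a library of another stage in this share. Eef1a1, which encodes the main embryonic form of eEF1A, took 0.714, 0.716 and 0.697% in the E9.5 libraries, 0.527, 0.481 and 0.484% in the E14.5 libraries, and 0.480, 0.326 and 0.536% in those of P60. Without Eef1a1 the share was 2.28 to 2.44% at E9.5, 1.48 to 1.72% at E14.5 and 1.07 to 1.16% at P60. The eIF4G scaffolds and eEF2 with its kinase lost most of their share between E14.5 and P60: the scaffolds held 0.0744 to 0.110% at P60 and 0.28 to 0.338% at E14.5, and eEF2 with its kinase held 0.0810 to 0.113% at P60 and 0.321 to 0.362% at E14.5. The subunit joining and late factors held 0.0645 to 0.0925% at E14.5 and 0.180 to 0.212% at E9.5.

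**Figure D1:**
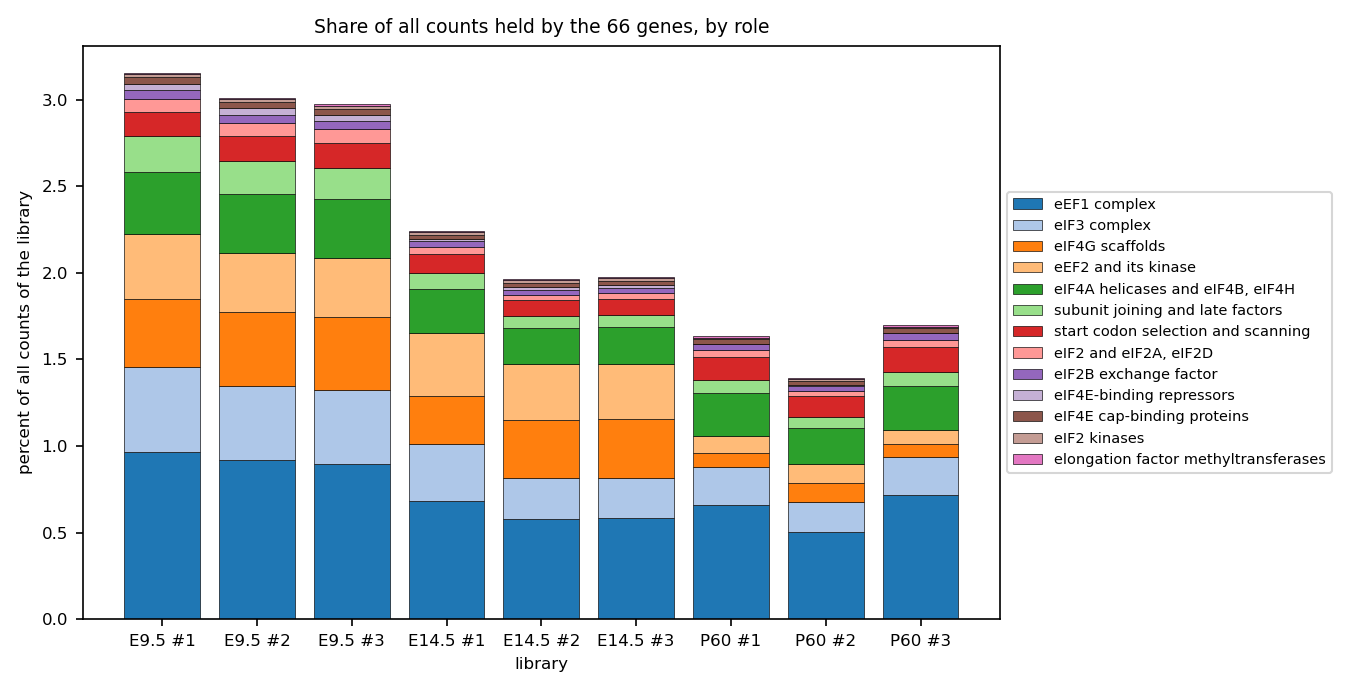
Stacked bars give the percent of all counts of each library (y axis) held by the 66 genes, divided by role, for the 3 libraries of each stage (x axis). The bars reach 2.97 to 3.16% at E9.5, 1.97 to 2.24% at E14.5 and 1.39 to 1.70% at P60, and the eIF4G and eEF2 segments shrink at P60.

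Between E9.5 and E14.5 the change was almost entirely downward. With edgeR's quasi-likelihood test, adjusted over all 17971 genes tested, 46 of the 64 tested members were lower at E14.5, 3 were higher and 15 did not pass. Among all genes, 30.7% were called lower and 34.0% higher in this comparison, so the downward share of the members, 71.9%, stood well above the background and the upward share, 4.69%, well below it. The median log2 fold change was -0.86 over the members and 0.03 over all genes. The 3 members that rose were Eef1a2, Eif1b and Eif2ak3. Of the 46 that fell, 25 fell by at least 2-fold, a cut for which the share of all genes was not counted. No tested member of the eIF2, eIF2B, eIF3, eIF4A, eIF4E, eIF4E-binding, eIF4G or subunit-joining groups rose.

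From E14.5 to P60 the members moved both ways. At P60, 14 were higher, 22 were lower and 28 did not pass, against a background of 36.7% of all genes higher and 39.4% lower. The median log2 fold change was 0.00 over the members and -0.06 over all genes. The count of higher members depended on the libraries that stood apart: it was 22 without P60 library 2, 21 without E14.5 library 1 and 33 without both, while the count of lower members was 21, 20 and 21, each of 65 then tested. In those 3 fits, 36.1, 37.5 and 38.7% of all genes were higher and 39.8, 39.1 and 41.8% lower. The 14 of 64 thus lay below the share of all genes, and the 33 of 65 without both libraries lay above it. Over the whole interval, 46 members were lower at P60 than at E9.5, 7 were higher and 11 did not pass, where 40.6% of all genes were lower and 42.0% higher. The median over this interval was -0.92 for the members and 0.05 for all genes. A test over the 3 stages together called 57 of the 64 members, and 91.5% of all genes. The E14.5 libraries serve in both steps, so the fold changes of a gene in the 2 steps are not independent.

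Across the series, 15 members fell in both steps, among them the eIF3 subunits Eif3a, Eif3b, Eif3c and Eif3l, the eIF4F parts Eif4g1 and Eif4a1, the helicase cofactor Eif4b, and the joining GTPase Eif5b. A further 22 fell by E14.5 and did not pass the test after it, among them Eef1a1, Eif5a and Eif4ebp1. A fall followed by a rise was found for 9 members: Eif1a, Eif1ax, Eif2a, Eif2s1, Eif2b3, Eif3i, Eif4e, Eif5a2 and the eEF2 methyltransferase gene Eef2kmt. Another 6 were not called in the first step and fell in the second: Eef2, Eef2k, Eif2ak1, Eif3f, Eif4g2 and Eif4g3. Of these, Eef2, Eef2k, Eif2ak1, Eif4g2 and Eif4g3 were also called lower in the first step when the trend with transcript length described below was removed. That removal also lowered the median of all genes in the first step, to -0.25 from 0.03. In the reverse case, 4 were not called in the first step and rose in the second: Eif1, Eif3k, Eif4a2 and Eef1akmt1. Eef1a2 alone rose in both steps, Eif2ak3 rose and then fell, and Eif1b rose and then did not pass. The remaining 5, Eef1akmt2, Eef1e1, Eif2b4, Eif3h and Eif4e3, were called in neither step. The share of all genes with each of these patterns over both steps was not counted, so the pattern counts describe the members only.

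**Figure D2:**
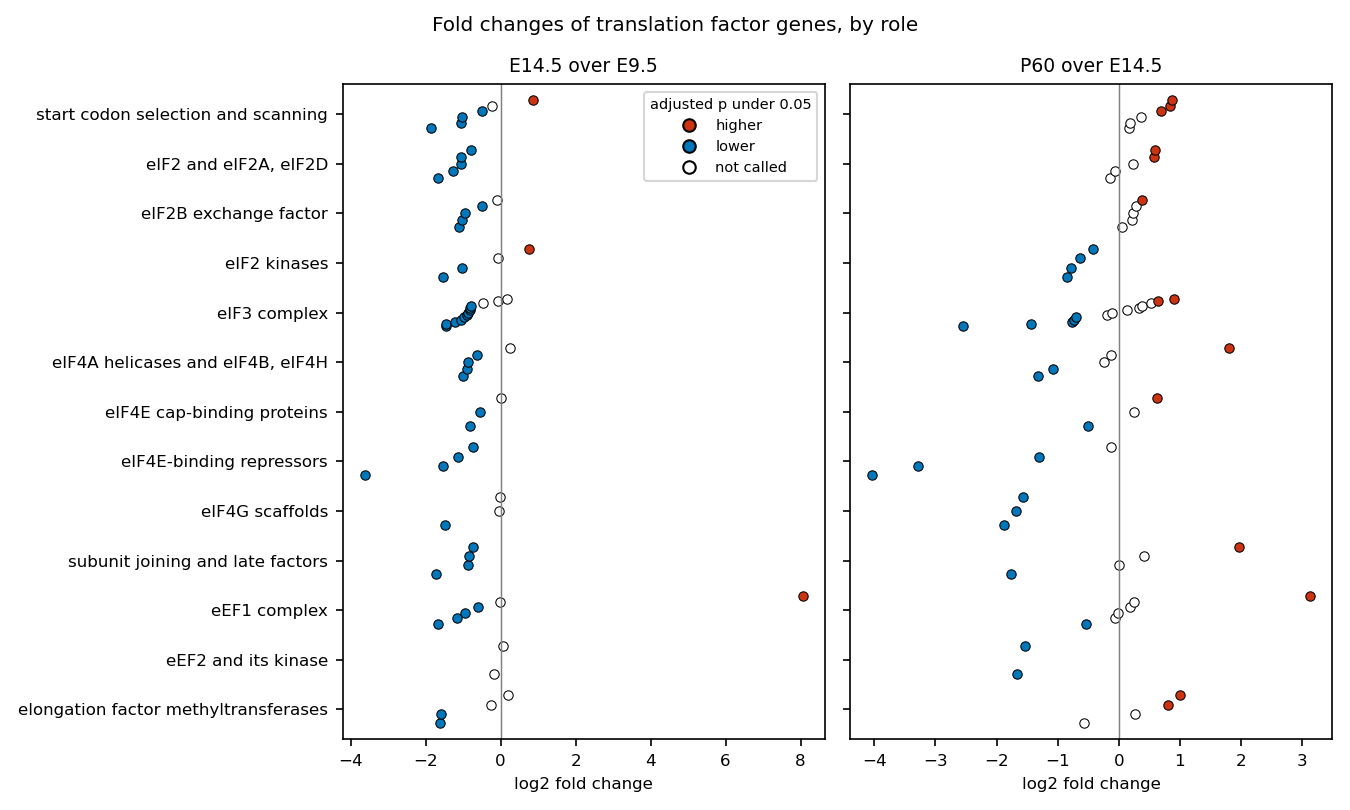
Each point is a tested member, placed by its log2 fold change (x axis) in its role (y axis), for E14.5 over E9.5 (left) and P60 over E14.5 (right); red points were called higher, blue points lower and white points not called at an adjusted p of 0.05. On the left nearly all points lie below 0 and Eef1a2 lies apart at 8.06, and on the right the points spread to both sides.

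Elongation factor eEF1A showed the largest change of any member. Eef1a2 (chr2:181147653-181157014, minus strand, mm10) had 0.936, 0.0995 and 0.191 CPM at E9.5, 126, 110.0 and 92.0 CPM at E14.5, and 889, 1151 and 821 CPM at P60. The stages did not overlap and each library of a later stage was higher. It rose by 8.06 ± 0.52 log2 units at E14.5 against E9.5 (adjusted p = 2.6e-07) and by 3.13 ± 0.38 at P60 against E14.5 (adjusted p = 2.2e-05). Without E9.5 library 1 the first of these values was 9.52. The E9.5 value rests on 37 reads over the 3 libraries, and the highest of the 3 was library 1, the one with the high sum of striated muscle markers. The summed neuron markers given above were also higher at each later stage, and their part in the change of Eef1a2 was not tested.

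Its partner Eef1a1 (chromosome 9) had 7301, 7231 and 6956 CPM at E9.5, 5169, 4528 and 4478 CPM at E14.5, and 5001, 3379 and 5619 CPM at P60. The E14.5 libraries all lay below the E9.5 libraries, and the P60 libraries overlapped with E14.5. The log2 fold change was -0.60 ± 0.19 at E14.5 against E9.5 (adjusted p = 0.017) and -0.02 ± 0.19 at P60 against E14.5 (adjusted p = 0.94). The first of these calls was lost without E14.5 library 2 or library 3. With the length trend removed, the value of Eef1a1 at P60 against E14.5 was -0.45 and was called lower (adjusted p = 0.017). The 8 annotated pseudogenes that resemble Eef1a1 in sequence held 2575 counts, or 0.161% of its 1599709 counts.

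Per kilobase of transcript, Eef1a2 stood to Eef1a1 at a mean ratio of 4.86e-05 at E9.5, 0.0198 at E14.5 and 0.191 at P60. Eef1a2 thus made up 0.00486, 1.95 and 15.7% of the length-corrected level of the pair at these stages. The log2 ratio of CPM + 1 was -12.36 ± 0.42, -5.43 ± 0.14 and -2.27 ± 0.64 (SD, n = 3 each), and an exact permutation test over all 1680 assignments of libraries to stages gave p = 0.0036, the smallest value this design allows (adjusted p = 0.0051 over the 10 pairs). Because Eef1a2 lay under 1 CPM at E9.5, the ratio at that stage depends on the added 1 CPM. The mean at P60 minus that at E9.5 was 10.09, against 11.88 with 0.1 CPM added and 8.11 with 5 CPM added. At P60 Eef1a1 remained the more abundant of both, by the transcript length used and by total exon length.

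The promoters of this pair differ in makeup, and they are shown because no other pair moved as far. The windows cover the 250 bases before the RefSeq start of each gene on GRCm38.p6, with every CG dinucleotide in capitals. The Eef1a1 window lies at chr9:78481725-78481974 and the Eef1a2 window at chr2:181157016-181157265, both on the minus strand.
Eef1a1: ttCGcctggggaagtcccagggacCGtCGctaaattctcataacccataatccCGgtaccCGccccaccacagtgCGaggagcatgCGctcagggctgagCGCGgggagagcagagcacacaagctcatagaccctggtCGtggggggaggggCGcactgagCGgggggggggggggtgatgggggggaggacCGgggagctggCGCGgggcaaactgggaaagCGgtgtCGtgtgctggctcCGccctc
Eef1a2: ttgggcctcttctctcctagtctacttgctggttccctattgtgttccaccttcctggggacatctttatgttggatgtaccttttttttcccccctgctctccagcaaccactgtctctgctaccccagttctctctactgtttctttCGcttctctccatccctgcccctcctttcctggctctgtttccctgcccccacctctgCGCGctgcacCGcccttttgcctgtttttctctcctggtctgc
The Eef1a1 window holds 18 CG dinucleotides and 68.0% G + C, and the Eef1a2 window holds 4 and 54.0%. Pyrimidines make up 76.8% of the Eef1a2 strand shown and 40.4% of the Eef1a1 strand. The median window of all 32851 promoters in the RefSeq table holds 6 CG dinucleotides, 52.4% G + C and 50% pyrimidines. In the 65 windows of the 50 members with an entry, the median was 18 CG dinucleotides and 61.2% G + C. Eef1a2 is therefore low in CG dinucleotides among the members and close to the median of all promoters.

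The eEF1B subunits, which reload eEF1A with GTP, fell at E14.5. Eef1d, the delta subunit, had 209, 119 and 117 CPM at E14.5 against 580, 425 and 422 CPM at E9.5, a log2 fold change of -1.68 ± 0.25 (adjusted p = 0.00014). All E14.5 libraries lay below all E9.5 libraries, and P60 libraries, at 116 to 161 CPM, did not differ by the test from E14.5. Eef1b2 changed by -1.16 and Eef1g by -0.94 log2 units in the same step. Eef1g, the gamma subunit, had 307, 265 and 339 CPM at P60 against 564, 372 and 380 CPM at E14.5 (-0.53 ± 0.19, adjusted p = 0.027), a call that was lost without E14.5 library 1, P60 library 1 or P60 library 2. Eef1e1, a scaffold of the multisynthetase complex, lay between 40.8 and 71.6 CPM in all 9 libraries and was called in no comparison.

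The translocation factor gene had its larger change late. Eef2 had 3806, 3418 and 3336 CPM at E9.5, 3497, 2997 and 2916 CPM at E14.5, and 1002, 1145 and 836 CPM at P60. E9.5 and E14.5 overlapped, and every P60 library lay far below both. At P60 against E14.5 it fell by 1.66 ± 0.17 log2 units (adjusted p = 5.1e-06). Eef2k, the kinase that inhibits eEF2, had 17.1, 24.1 and 13.7 CPM at P60 against 48.3, 57.0 and 53.2 CPM at E14.5, or -1.53 ± 0.20 (adjusted p = 3.6e-05). In neither gene did the step from E9.5 to E14.5 pass the test, at -0.17 for Eef2 and 0.05 for Eef2k. With the length trend removed, however, both were called lower in that first step, Eef2 at -0.48 (adjusted p = 0.0083) and Eef2k at -0.41 (adjusted p = 0.013). The median of all genes in that step was -0.25 in this fit and 0.03 in the main test. At P60 against E14.5 the values with the trend removed were -1.61 for Eef2 and -0.68 for Eef2k (adjusted p = 5.5e-07 and 0.00046).

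Of the 4 methyltransferases of elongation factors that were tested, Eef2kmt, which acts on eEF2, had 5.52, 4.28 and 5.23 CPM at E14.5 against 15.4, 15.8 and 15.0 CPM at E9.5. This was a change of -1.62 ± 0.19 log2 units (adjusted p = 2.2e-05), followed by a partial rise of 0.81 ± 0.19 at P60. Eef2kmt shares 472 exon bases, 17.6% of its length, with Alg1 on the opposite strand, and the strand setting of the counting is not given in the sources used here. Eef1akmt1, which acts on eEF1A, rose at P60 to 56.3, 44.5 and 54.8 CPM, against 39.6, 19.2 and 18.8 CPM at E14.5 (1.00 ± 0.27, adjusted p = 0.0057), a rise of 0.41 with the length trend removed (adjusted p = 0.047). Eef1akmt3 stayed under 1 CPM in all libraries, and Eef1akmt2 lay between 26.1 and 42.9 CPM.

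**Figure D3:**
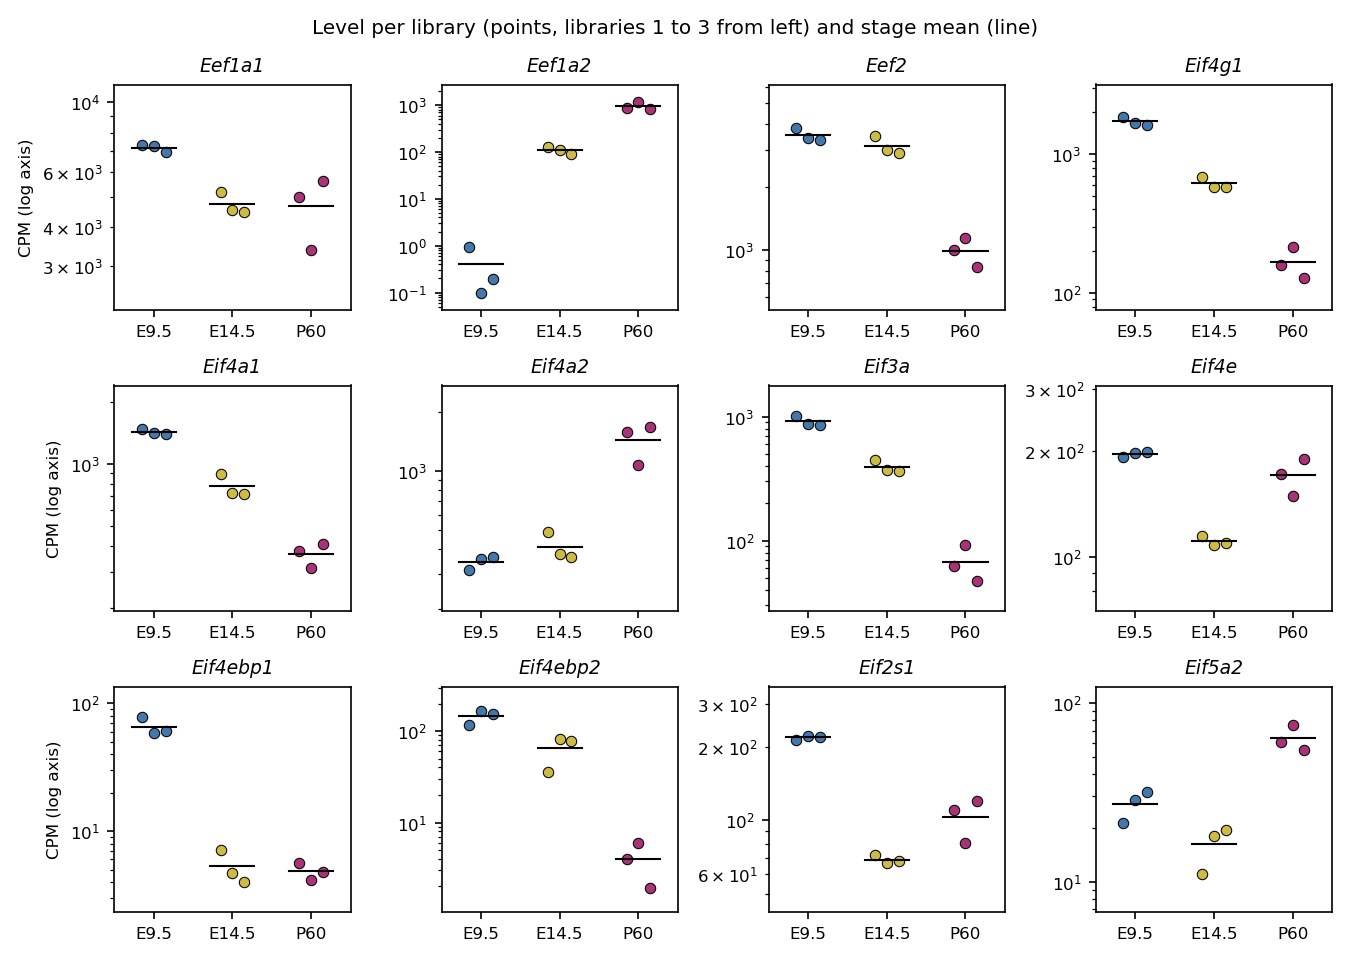
Points give the level of 12 members in CPM (log y axis, its range set per gene) in each library of the 3 stages (x axis), with libraries 1 to 3 from left to right, and lines give stage means. Eef1a2 is at most 0.936 CPM at E9.5 and at least 821 CPM at P60, Eif4a2 and Eif5a2 are highest at P60, Eif2s1 and Eif4e are lowest at E14.5, and Eef2, Eif4g1, Eif3a and Eif4ebp2 are lowest at P60.

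Within eIF4F, the helicase genes exchanged places. Eif4a1, the more widely expressed form, had 1477, 1413 and 1393 CPM at E9.5, 898, 720 and 716 CPM at E14.5, and 379, 314 and 410 CPM at P60. Each stage lay below the one before without overlap, by 0.88 ± 0.16 log2 units at E14.5 against E9.5 (adjusted p = 0.00054) and by 1.08 ± 0.16 at P60 against E14.5 (adjusted p = 8.9e-05). Eif4a2, the close relative that is abundant in brain, had 315, 355 and 365 CPM at E9.5, 492, 380 and 366 CPM at E14.5, and 1572, 1066 and 1666 CPM at P60. Its rise at P60 against E14.5 was 1.80 ± 0.20 log2 units (adjusted p = 1.2e-05), and the earlier step, at 0.26 ± 0.19, did not pass (adjusted p = 0.26).

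Per kilobase, the Eif4a2 to Eif4a1 ratio was 0.172 to 0.210 in the E9.5 libraries, 0.411 to 0.441 in the E14.5 libraries and 2.73 to 3.34 in the P60 libraries. Eif4a1 was thus the more abundant form in every embryonic library and Eif4a2 in every P60 library, and total exon length gave the same order. The log2 ratio of CPM + 1 was -2.05 ± 0.15, -0.92 ± 0.05 and 1.94 ± 0.16 at E9.5, E14.5 and P60 (SD, n = 3 each; exact permutation p = 0.0036, adjusted p = 0.0051). Pseudogenes that resemble Eif4a1 held 438 counts, 0.177% of its own. Their promoter windows, drawn as above, lie at chr11:69672424-69672673 on the minus strand for Eif4a1 and chr16:23107218-23107467 on the plus strand for Eif4a2.
Eif4a1: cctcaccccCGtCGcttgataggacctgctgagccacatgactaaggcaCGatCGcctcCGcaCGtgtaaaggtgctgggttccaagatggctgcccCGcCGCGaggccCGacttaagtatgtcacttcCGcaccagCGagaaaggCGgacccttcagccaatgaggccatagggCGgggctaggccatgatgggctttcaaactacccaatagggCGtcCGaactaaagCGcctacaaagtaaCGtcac
Eif4a2: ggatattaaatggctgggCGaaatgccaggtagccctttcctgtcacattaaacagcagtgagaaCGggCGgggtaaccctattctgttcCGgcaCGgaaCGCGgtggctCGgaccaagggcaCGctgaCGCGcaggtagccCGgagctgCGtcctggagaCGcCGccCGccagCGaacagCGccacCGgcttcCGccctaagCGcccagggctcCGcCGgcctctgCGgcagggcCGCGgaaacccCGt
The Eif4a1 window holds 18 CG dinucleotides and the Eif4a2 window 27, so both resemble the members' median of 18 more than the median of 6 of all promoters.

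Eif4a3, the related helicase of the exon junction complex, and the helicase cofactors Eif4b and Eif4h fell in the first step, by 0.91, 1.01 and 0.64 log2 units. Eif4b fell again at P60, to 157, 186 and 139 CPM against 443, 388 and 375 CPM at E14.5 (-1.32 ± 0.15, adjusted p = 1.6e-05), and Eif4a3 and Eif4h did not pass in that step.

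All 3 eIF4G scaffolds fell at P60, and Eif4g1 had begun to fall earlier. Eif4g1, the main scaffold (chr16:20668313-20692884, plus strand), had 1851, 1678 and 1633 CPM at E9.5, 689, 584 and 577 CPM at E14.5, and 160, 215 and 129 CPM at P60. These stages did not overlap, and the log2 fold changes were -1.48 ± 0.19 at E14.5 against E9.5 (adjusted p = 5.4e-05) and -1.88 ± 0.20 at P60 against E14.5 (adjusted p = 7e-06). Eif4g3, its relative, had 315, 303 and 304 CPM at E9.5, 293, 308 and 305 CPM at E14.5, and 91.0, 140.3 and 75.9 CPM at P60. The E9.5 and E14.5 libraries overlapped, and the fall at P60 was 1.56 ± 0.20 log2 units (adjusted p = 4.2e-05). Their log2 ratio, Eif4g3 to Eif4g1, was -2.48 ± 0.07, -1.02 ± 0.18 and -0.72 ± 0.10 in stage order (exact permutation p = 0.0036, adjusted p = 0.0051). Eif4g2, a relative that lacks the eIF4E-binding site, was not called at E14.5 against E9.5 and fell by 1.68 ± 0.18 log2 units at P60 (adjusted p = 1e-05). With the length trend removed, the values at P60 against E14.5 were -1.22 for Eif4g1, -0.80 for Eif4g3 and -0.58 for Eif4g2, all still called. In the same fit Eif4g3 and Eif4g2 were also called lower at E14.5 against E9.5, at -0.46 and -0.54 log2 units (adjusted p = 0.01 and 0.0018). The median of all genes in that step was -0.25 in this fit and 0.03 in the main test. Whether these calls mark an earlier fall of the genes themselves was not tested.

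Among the cap-binding protein genes, Eif4e dipped at E14.5. It had 192, 197 and 198 CPM at E9.5, 115, 108 and 109 CPM at E14.5, and 172, 149 and 189 CPM at P60, so its lowest stage was E14.5 and no stages overlapped. It changed by -0.82 ± 0.13 log2 units at E14.5 against E9.5 (adjusted p = 0.00023) and by 0.62 ± 0.13 at P60 against E14.5 (adjusted p = 0.0012). Eif4e2, which binds caps but represses translation, fell in both steps by 0.56 and 0.51 log2 units, to 70.1 to 78.2 CPM at P60. Eif4e3 lay between 8.47 and 12.4 CPM throughout and was not called. Eif4e1b, known as an oocyte form, had no read in any library.

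The eIF4E-binding repressors had the lowest median log2 fold change of the roles in both steps, at -1.34 and -2.30, and their members fell at different times. Eif4ebp1, which encodes 4E-BP1, a target of mTORC1, had 77.7, 59.0 and 60.4 CPM at E9.5, 7.17, 4.70 and 4.02 CPM at E14.5, and 5.60, 4.14 and 4.77 CPM at P60. Nearly the whole change fell in the first step, which was -3.63 ± 0.24 log2 units, or 12.4-fold (adjusted p = 3.1e-07), and E14.5 and P60 overlapped. Eif4ebp2, which encodes 4E-BP2, the form best known from adult brain, had 118, 164 and 154 CPM at E9.5, 35.5, 81.4 and 78.9 CPM at E14.5, and 4.03, 5.96 and 1.94 CPM at P60. Its larger change came later: it fell by 1.15 ± 0.37 log2 units at E14.5 against E9.5 (adjusted p = 0.018) and by 4.04 ± 0.42 at P60 against E14.5 (adjusted p = 7.5e-06), which is 16.4-fold. The second value was -3.30 with the length trend removed and -4.76 without E14.5 library 1 and P60 library 2. The first of these calls was lost without E9.5 library 2.

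The balance of both repressors differed between stages. The log2 ratio of Eif4ebp2 to Eif4ebp1 was 1.13 ± 0.47 at E9.5, 3.34 ± 1.02 at E14.5 and -0.31 ± 0.71 at P60 (exact permutation p = 0.0036, adjusted p = 0.0051). Per kilobase, Eif4ebp2 stood at 0.523 to 0.961 of the level of Eif4ebp1 in the E9.5 libraries, above it in every E14.5 library, at 1.71 to 6.77, and below it in every P60 library, at 0.141 to 0.497. By total exon length the E9.5 libraries reached from 0.575 to 1.06, so the order of the pair at E9.5 depended on the length used. The transcripts are 5784 bases long for Eif4ebp2 and 1997 for Eif4ebp1, and the part of the length trend in their P60 ratio was not tested. The widest spread was at E14.5, where library 1 had the lowest ratio. Eif4enif1, which encodes the eIF4E transporter 4E-T, fell in both steps, to 33.9, 50.4 and 30.1 CPM at P60 against 90.1, 98.0 and 94.5 CPM at E14.5 (-1.31 ± 0.18, adjusted p = 6.8e-05). Eif4ebp3 had 62 reads at E9.5, 24 at E14.5 and 2 at P60 over all libraries of a stage, and 67.3% of its exon length is shared with another protein-coding gene on the same strand, so its calls are uncertain.

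Among the factors that select the start codon, the eIF1A genes showed a trough at E14.5. Eif1a had 142, 163 and 155 CPM at E9.5, 38.0, 44.8 and 44.0 CPM at E14.5, and 74.9, 68.9 and 83.6 CPM at P60. The stages did not overlap, and the changes were -1.86 ± 0.14 log2 units at E14.5 against E9.5 (adjusted p = 7.7e-07) and 0.84 ± 0.14 at P60 against E14.5 (adjusted p = 0.00019). Eif1ax, its X-linked counterpart, had 237, 240 and 267 CPM at E9.5, 176, 176 and 173 CPM at E14.5, and 288, 263 and 295 CPM at P60. It dipped less, by 0.50 ± 0.12 log2 units (adjusted p = 0.0042), and rose by 0.69 ± 0.12 (adjusted p = 0.00042), or by 1.30 with the length trend removed. Between both, the log2 ratio, Eif1a to Eif1ax, was -0.69 ± 0.12, -2.03 ± 0.13 and -1.88 ± 0.07 (exact permutation p = 0.0036, adjusted p = 0.0051). Eif5, the GTPase-activating protein of eIF2, fell by 1.04 ± 0.13 log2 units in the first step (adjusted p = 4.8e-05) and did not pass in the second. Eif1ad, a relative of eIF1A, fell by 1.06 log2 units in the first step, and it shares 428 exon bases with Banf1 on the opposite strand.

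Of the eIF1 genes, which guard start codon choice, Eif1b ran against this trend. Eif1 was not called at E14.5 against E9.5, at -0.22 ± 0.19 log2 units (adjusted p = 0.34). Eif1b had 215, 118 and 109 CPM at E14.5 against 94.7, 76.9 and 70.5 CPM at E9.5, a rise of 0.87 ± 0.25 log2 units (adjusted p = 0.011) with no overlap. At P60 it had 200.3, 156 and 216 CPM. Eif1b shares 12.7% of its exon bases with an antisense gene. Eif1 had 472, 397 and 512 CPM at P60 against 325, 217 and 215 CPM at E14.5, a rise of 0.87 ± 0.19 log2 units (adjusted p = 0.0018). With the length trend described below removed, this rise of Eif1 was 0.28 and did not pass. For Eif1b to Eif1 the log2 ratio was -1.85 ± 0.06, -0.81 ± 0.19 and -1.27 ± 0.06 (exact permutation p = 0.0036, adjusted p = 0.0051), highest at E14.5.

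All 5 genes of the eIF2 group fell at E14.5. Eif2s1, the alpha subunit that stress kinases phosphorylate, had 214, 222 and 220.3 CPM at E9.5, 72.1, 66.7 and 68.2 CPM at E14.5, and 110, 80.4 and 120.0 CPM at P60. E14.5 lay below both other stages without overlap, at -1.67 ± 0.16 log2 units against E9.5 (adjusted p = 5.1e-06), and P60 was higher than E14.5 by 0.58 ± 0.16 (adjusted p = 0.0055). Eif2a, an alternative carrier of initiator tRNA, followed the same course with -1.06 ± 0.15 and then 0.59 ± 0.14. Eif2s2, the beta subunit, fell by 1.26 ± 0.19 log2 units and did not pass afterwards.

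The gamma subunit gene Eif2s3x lies on the X chromosome and has a Y-linked copy, Eif2s3y, which is not a member. Eif2s3x had 83.3, 106 and 93.4 CPM at E9.5, 40.5, 39.8 and 55.1 CPM at E14.5, and 39.8, 41.3 and 40.5 CPM at P60. Eif2s3y had 31.6, 15.8 and 25.0 CPM at E9.5, 83.1, 59.7 and 0 CPM at E14.5, and 0.0333, 0.0294 and 0 CPM at P60. The copies did not run in parallel, and the library without Eif2s3y reads at E14.5 had the highest Eif2s3x of that stage. Reads of the Y-linked copy differed between stages, so stage and the sex makeup of the tissue cannot be told apart for Eif2s3x. The same limit holds for the other members, the X-linked Eif1ax among them. The change of Eif2s3x at E14.5 was -1.06 ± 0.16 log2 units (adjusted p = 0.00016).

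Of the 5 subunits of eIF2B, the exchange factor of eIF2, 4 fell at E14.5. Eif2b1, the alpha subunit, led with 36.2, 37.9 and 38.5 CPM at E14.5 against 81.6, 84.6 and 76.2 CPM at E9.5 (-1.11 ± 0.13, adjusted p = 2e-05). Eif2b3 and Eif2b5 fell by 1.02 and 0.95 log2 units. Eif2b2 fell by 0.50 ± 0.19 (adjusted p = 0.042), a call that 9 of 21 alternative settings lost, and Eif2b4 did not pass. At P60 only Eif2b3 was called, at 0.38 ± 0.16 log2 units above E14.5 (adjusted p = 0.049), with overlapping libraries and a value of -0.14 when the length trend was removed. That call was also lost without any single E9.5 library, E14.5 library 2 or 3, or P60 library 1 or 3.

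The 4 eIF2 kinases moved in both directions at E14.5. Eif2ak3, which encodes the endoplasmic reticulum stress kinase PERK, had 30.1, 38.9 and 38.2 CPM at E14.5 against 19.93, 22.01 and 21.18 CPM at E9.5. It rose by 0.76 ± 0.17 log2 units (adjusted p = 0.0023) and then fell by 0.84 ± 0.17 at P60 (adjusted p = 0.00096), to 19.0, 24.3 and 16.7 CPM, so E14.5 was its highest stage without overlap. Eif2ak2, which encodes the double-stranded RNA sensor PKR, had 4.28, 6.94 and 7.24 CPM at E14.5 against 14.51, 20.75 and 18.47 CPM at E9.5 (-1.54 ± 0.24, adjusted p = 0.00019). Eif2ak4, which encodes the amino acid sensor GCN2, had 52.3, 66.8 and 66.3 CPM at E9.5, 24.6, 32.8 and 33.9 CPM at E14.5, and 17.4, 20.2 and 15.8 CPM at P60, falling by 1.02 ± 0.17 and 0.78 ± 0.17 log2 units. Eif2ak1, which encodes the haem-regulated kinase HRI, lay between 71.2 and 96.1 CPM in embryonic libraries and between 48.8 and 70.7 CPM at P60, a change of -0.43 ± 0.18 (adjusted p = 0.049) that was not called in 13 of the 21 settings tried, single left-out libraries of each stage among them.

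At P60 against E14.5, the calls of Eif2ak1, Eif2ak2 and Eif2ak4 were lost with the length trend removed, and that of Eif2ak2, at -0.63 ± 0.24, also without any one of E14.5 libraries 2 and 3 and P60 libraries 1 and 3. With the length trend removed, Eif2ak1 was called lower at E14.5 against E9.5, at -0.46 (adjusted p = 0.033), and stood at -0.08 at P60 against E14.5. The median of all genes at E14.5 against E9.5 was -0.25 in that fit and 0.03 in the main test. The log2 ratio of Eif2ak1 to Eif2ak4 was 0.44 ± 0.36 at E9.5, 1.37 ± 0.48 at E14.5 and 1.68 ± 0.10 at P60 (exact permutation p = 0.018, adjusted p = 0.018). Leaving out E9.5 library 3 brought the adjusted p to 0.05, and a replicate block brought it to 0.056. Summed CPM of 5 erythroid markers was 4120 to 5600 at E9.5, 163 to 321 at E14.5 and 0.822 to 1.57 at P60, with Hba-x and Hbb-bh1 at 0 in at least 1 library; HRI is best known from red cell precursors, and the part of these cells in the ratio was not tested.

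eIF3, the largest initiation complex, fell at E14.5 in most of its subunits. At E14.5, 10 of its 13 tested subunits were lower and none was higher, with fold changes between -1.47 and 0.17 log2 units. Eif3a, the RNA-binding core subunit, had 1018, 878 and 849 CPM at E9.5, 444, 370.1 and 363 CPM at E14.5, and 62.3, 92.5 and 46.9 CPM at P60. Eif3b, its partner in the core, had 770, 635 and 615 CPM at E9.5, 310.0, 208 and 214 CPM at E14.5, and 90.04, 98.67 and 83.61 CPM at P60. Both stepped down without overlap at each stage, Eif3a by -1.22 ± 0.23 and then -2.55 ± 0.24 log2 units (adjusted p = 0.00071 and 3e-06) and Eif3b by -1.47 ± 0.18 and then -1.43 ± 0.19 (adjusted p = 4.3e-05 and 3.8e-05). At P60 against E14.5, Eif3c, Eif3l and Eif3f also fell, by 0.70 to 0.77 log2 units.

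Against these, Eif3i rose to 349, 205 and 351 CPM at P60, against 214, 138 and 132 CPM at E14.5 (0.90 ± 0.25, adjusted p = 0.0062), and Eif3k, a peripheral subunit, rose by 0.64 ± 0.27 (adjusted p = 0.047). The P60 and E14.5 libraries overlapped for both, and with the length trend removed neither call held. That of Eif3k was also lost without E9.5 library 2 or 3, E14.5 library 2 or 3, or P60 library 1 or 3. The other 6 subunits tested, Eif3d, Eif3e, Eif3g, Eif3h, Eif3j1 and Eif3m, did not pass in that step, with values from -0.20 to 0.52. Eif3d shares 43.3% of its exon bases with an antisense gene that has 403 counts in all, against 41672 for Eif3d, and Eif3j1 shares 19.0% with Spg11. Eif3j2 had 32, 15 and 13 reads at E9.5, E14.5 and P60 and was not tested.

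The late factors moved in both directions at P60. Eif5a, which encodes the hypusine-bearing factor that helps ribosomes through difficult peptide bonds, had 558, 380 and 385 CPM at E14.5 against 1630, 1427 and 1339 CPM at E9.5 (-1.73 ± 0.20, adjusted p = 1.9e-05), and 599, 486 and 667 CPM at P60. Its relative Eif5a2 had 21.3, 28.7 and 31.7 CPM at E9.5, 11.1, 18.1 and 19.5 CPM at E14.5, and 60.5, 75.2 and 54.7 CPM at P60. Its fall at E14.5, of 0.75 ± 0.23 log2 units (adjusted p = 0.015), was not called without E9.5 library 3. The P60 libraries of Eif5a2 lay above all others, with a rise of 1.97 ± 0.24 log2 units against E14.5 (adjusted p = 2.2e-05). Eif5a2 made up 0.538% of the length-corrected level of the pair at E9.5, 1.11% at E14.5 and 3.11% at P60. The log2 ratio was -5.71 ± 0.43, -4.70 ± 0.73 and -3.18 ± 0.46 (exact permutation p = 0.0071, adjusted p = 0.0089). Eif5b, the GTPase that joins the ribosomal subunits, fell to 43.6, 63.3 and 38.5 CPM at P60, against 213, 139 and 144 CPM at E14.5 (-1.77 ± 0.23, adjusted p = 3.5e-05). With the length trend removed this value was -0.80 (adjusted p = 0.015). Eif5b shares 16.8% of its exon bases with Rev1 on the opposite strand. Eif6, which keeps free large subunits apart, fell by 0.85 ± 0.21 log2 units in the first step and stood at 0.01 in the second.

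**Figure D4:**
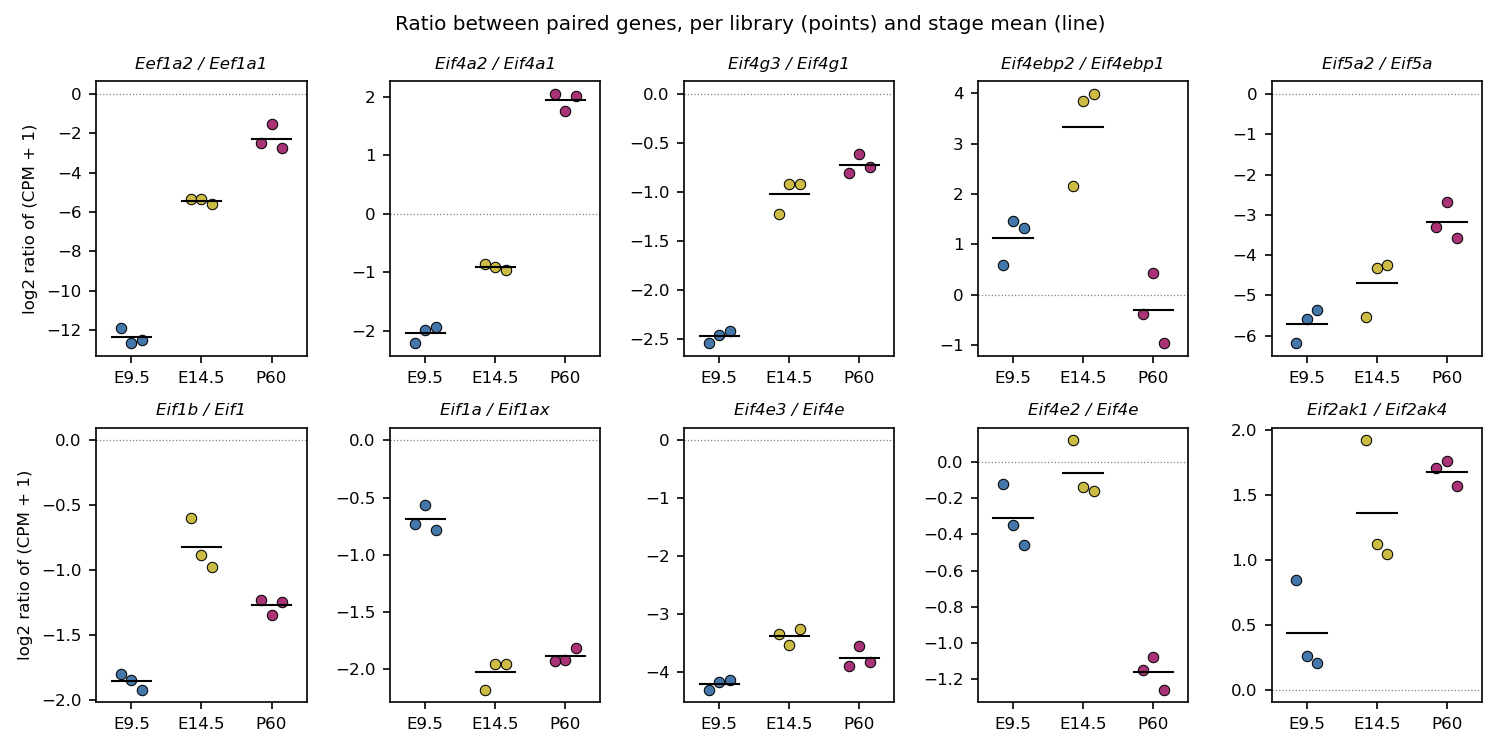
Points give the log2 ratio of CPM + 1 between the genes of each of 10 pairs (y axis, its range set per pair) in every library of the 3 stages (x axis), lines give stage means, and the dotted line marks 0. The Eef1a2 to Eef1a1 ratio averages -12.36 at E9.5, a value that depends on the added 1 CPM, and -2.27 at P60. The Eif4a2 to Eif4a1 ratio crosses 0 by P60, and the Eif4ebp2 to Eif4ebp1 ratio peaks at E14.5.

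All 10 pair ratios differed across stages at an adjusted p under 0.05, and with a replicate block 9 of them did, the exception being Eif2ak1 to Eif2ak4 at 0.056. The share of other gene pairs whose ratio differed was not counted, and 91.5% of all single genes differed across the 3 stages. No ratio was computed with the length trend described below removed, and division by length does not take that trend out. Its part in ratios between genes of unlike length was not tested. The remaining pairs share Eif4e. The log2 ratio of Eif4e3 to Eif4e was -4.20 ± 0.10, -3.38 ± 0.14 and -3.76 ± 0.19 (exact permutation p = 0.0036, adjusted p = 0.0051), and that of Eif4e2 to Eif4e was -0.31 ± 0.17, -0.06 ± 0.15 and -1.16 ± 0.09 (exact permutation p = 0.011, adjusted p = 0.012).

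The letters CACGTG, the E-box read by factors such as Myc and the same on both strands, were searched for in the 250 bases before each start. This motif and those below were chosen with the results known. Of the 50 members with a window, 11 hold it, or 22%, against 6.86% of the 27025 genes in the RefSeq table. Windows of members are also richer in CG dinucleotides than the median window, as given above, and the motif contains one. The 11 do not share a direction: 6 of them fell at E14.5, where 36 of the 50 fell, and 2 fell in both steps. The motif is shown with up to 20 bases on each side, in capitals, for genes of 4 pairs and for Eef2.
On GRCm38.p6, with the strand in brackets, these stretches lie at chr11:69672587-69672632 (minus) for Eif4a1, chr16:20672653-20672698 (plus) for Eif4g1, chr10:81176568-81176613 (plus) for Eef2, chr11:69921435-69921480 (minus) for Eif5a, chr3:28781115-28781160 (plus) for Eif5a2 and chr9:120492562-120492605 (plus) for Eif1b.
Eif4a1: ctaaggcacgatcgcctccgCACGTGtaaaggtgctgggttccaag
Eif4g1: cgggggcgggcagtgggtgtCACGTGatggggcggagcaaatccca
Eef2: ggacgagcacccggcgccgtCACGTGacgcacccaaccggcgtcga
Eif5a: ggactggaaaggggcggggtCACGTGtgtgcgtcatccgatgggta
Eif5a2: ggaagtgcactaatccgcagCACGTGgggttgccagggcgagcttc
Eif1b: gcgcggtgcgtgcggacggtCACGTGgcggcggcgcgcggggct
In the eIF4A pair it is in the Eif4a1 window and not in that of Eif4a2, and in the eIF1 pair it is in that of Eif1b and not in that of Eif1. Both Eif5a and Eif5a2 have it. The letters TATAAA, on either strand, are in 4 of the 50 windows (8.0%, against 14.3% of all genes), and CCAAT is in 15 (30%, against 37.5%). TGACGT is in 8 (16.0%, against 7.29%), and all 8 of these members fell at E14.5, as did 36 of the 50. A match describes the letters only, and 16 members had no entry in the table.

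Genes that work beside these factors give a setting for the counts above. The shares of all genes to read them against are those given above: 34.0% higher and 30.7% lower at E14.5, and 36.7% higher and 39.4% lower at P60 against E14.5. Of 22 cytosolic aminoacyl-tRNA synthetases and their scaffolds, 20 fell at E14.5 and none rose, with a median of -0.90 log2 units against 0.03 for all genes. Vars, which charges valine tRNA, had 166, 148 and 151 CPM at E14.5 against 541, 549 and 541 CPM at E9.5. At P60 against E14.5, 7 of the 22 rose and 7 fell, or 31.8% each way, both under the shares of all genes. Vars fell again by 2.12 ± 0.16 log2 units, and the scaffold gene Aimp2 rose by 1.24 ± 0.19.

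Of 10 poly(A)-binding proteins and mRNA-recruiting partners, 5 fell and none rose at E14.5, where 30.7% of all genes fell, and 7 fell and 1 rose at P60 against E14.5, where 39.4% of all genes fell, with a median of -1.25 in that step against -0.06 for all genes. Pabpc1, the main cytoplasmic poly(A)-binding protein and a partner of eIF4G, had 1531, 1462 and 1399 CPM at E9.5, 446, 361 and 365 CPM at E14.5, and 68.2, 86.5 and 59.7 CPM at P60. It stepped down at each stage without overlap, as Eif4g1 did. The one that rose was Paip2, an inhibitor of poly(A)-binding protein, at 0.74 ± 0.18 log2 units. Gigyf1, a partner of the repressor eIF4E2, fell by 2.99 ± 0.28.

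Enzymes that modify eIF5A and eEF2 were counted next. Of 9 hypusine and diphthamide enzymes, 5 fell and none rose at E14.5, and 7 rose and 1 fell at P60 against E14.5 (median 0.74), against 36.7% of all genes higher and 39.4% lower. All genes with transcripts under 2 kb had a median of 0.56 in that step. Dohh, which completes hypusine on eIF5A, had 172, 120 and 176 CPM at P60 against 65.8, 45.0 and 40.6 CPM at E14.5 (1.63 ± 0.22, adjusted p = 5.5e-05). Dph1, a diphthamide enzyme for eEF2, rose by 1.05 ± 0.21 in that step after a fall of 1.55 ± 0.21 at E14.5. Dph2, which works with Dph1, was the one that fell, by 0.38 ± 0.14. The transcripts of these 9 enzymes are 1197 to 2953 bases long, and length moved with fold change at P60, as described below.

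Of 17 effectors and targets of the integrated stress response, the programme downstream of eIF2 phosphorylation, 4 rose and 8 fell at E14.5 (23.5 and 47.1%, against 34.0 and 30.7% of all genes), and 11 rose and 3 fell at P60 against E14.5 (64.7 and 17.6%, against 36.7 and 39.4%; median 0.77). Asns, asparagine synthetase, had 177, 187 and 183 CPM at P60 against 38.1, 31.4 and 29.5 CPM at E14.5 (2.47 ± 0.14, adjusted p = 8.9e-08). Shmt2, a mitochondrial serine enzyme of the same list, fell by 1.80 ± 0.17. In the first step the extremes were Trib3, at -3.33 ± 0.31, and Nupr1, at 2.45 ± 0.26, both under 10 CPM in all libraries. Asns and Shmt2 also serve amino acid metabolism in general.

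In the mTORC1 pathway and its eIF4E regulators, 3 of 17 rose and 4 fell at E14.5 (median -0.13), both under the shares of all genes, and 3 rose and 8 fell at P60 against E14.5 (median -0.35). The 8 are 47.1% of the list, near the 39.4% of all genes that were lower. Cyfip2, a neuronal partner of eIF4E and FMRP, had 148, 285 and 262 CPM at E14.5 against 33.6, 44.0 and 44.3 CPM at E9.5 (2.51 ± 0.33, adjusted p = 5.3e-05). Larp1, a repressor of mRNAs for translation factors and ribosomal proteins, fell by 1.09 ± 0.23 in that step. Mknk2, a kinase of eIF4E, had 21.2, 29.5 and 15.7 CPM at P60 against 95.1, 102 and 99.6 CPM at E14.5, and Deptor, an mTOR inhibitor, rose by 1.74 ± 0.33.

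Among termination and recycling factors, 6 of 9 were lower and 1 was higher at E14.5 (median -0.62), where 30.7% of all genes were lower. Etf1, which encodes the release factor eRF1, had 143, 136 and 138 CPM at E14.5 against 405, 426 and 420 CPM at E9.5, and Mcts1, a recycling factor, rose by 0.74 ± 0.17. At P60, 2 rose and 3 fell, both under the shares of all genes, with Hbs1l, a ribosome rescue factor, at -1.01 ± 0.19 and Mcts1 at 0.83 ± 0.17. Of 10 mitochondrial translation factors, 6 fell and 1 rose at E14.5 (median -0.48), and 3 rose and 2 fell at P60 (median 0.00), again under the shares of all genes in that step. The mitochondrial elongation factor gene Gfm1 fell by 1.11 ± 0.13 and the initiation factor gene Mtif3 rose by 0.75 ± 0.21 in the first step. In the second, the release factor gene Mtrf1 rose by 1.71 ± 0.23 and Guf1 fell by 1.10 ± 0.12.

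Transcript length moved with the fold change at P60. Over all genes, the median log2 fold change at P60 against E14.5 was 0.56 for transcripts under 2 kb, -0.04 for 2 to 4 kb, -0.56 for 4 to 6 kb and -1.16 over 6 kb, while at E14.5 against E9.5 it ran from -0.05 to 0.11. The members followed the same order at P60, with medians of 0.23 (24 members), 0.11 (24), -0.53 (12) and -1.62 (4). Members over 6 kb are Eef2k, Eif4g2, Eif4g3 and Eif5b, and all 4 fell at P60, by less once the length trend was removed, as given for each above. Read against their length class, the falls of Eif4ebp2 and Eif3a stood far below the median of 4 to 6 kb transcripts, and the rise of Eif5a2 stood far above it. Length and stage cannot be told apart in these libraries, and the source of the trend was not tested.

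With the length trend removed per library, 12 members rose and 27 fell at P60, where 38.2% of all genes were higher and 39.5% lower, and 3 rose and 53 fell at E14.5. At E14.5 in that fit 42.6% of all genes were lower and their median was -0.25 log2 units. Eef1a2, Eif4a2, Eif5a2, Eif4e, Eif1a, Eif1ax, Eif2a, Eif2s1, Eef2kmt and Eef1akmt1 were also called higher at P60 with it removed. The calls of Eif1, Eif3i, Eif3k, Eif2b3, Eif2ak1, Eif2ak2 and Eif2ak4 at P60 against E14.5 did not hold. Calls gained in that step with the trend removed included falls of Eef1a1, Eif3d, Eif3e, Eif4a3 and Eif4h and a rise of Eif3j1.

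**Figure D5:**
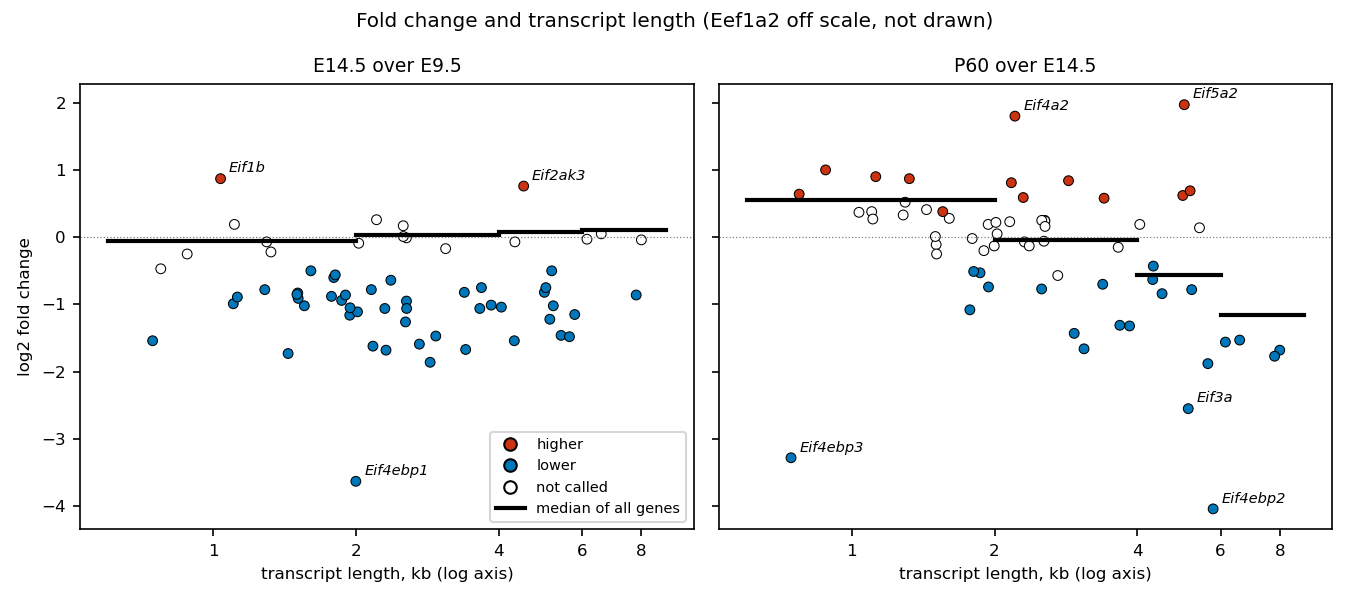
Each point is a tested member other than Eef1a2, placed by transcript length in kb (log x axis) and log2 fold change (y axis), for E14.5 over E9.5 (left) and P60 over E14.5 (right); colours give the call and black bars the median of all genes in 4 length classes. On the left most members of every length class lie below the bars, and on the right both members and bars lie lower for longer transcripts, with bars at 0.56 under 2 kb and -1.16 over 6 kb.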

How the data were processed

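RNA from the E9.5 head tissue and from E14.5 and P60 brain was sequenced in 9 libraries, 3 per stage. Per the labels' protocols, they were made from poly(A)-primed cDNA amplified by PCR. The authors deposited raw read counts per Ensembl gene identifier, with 30481975 to 35619093 counts per library and 16156 of 45706 identifiers at 0. Reads were trimmed with Trimmomatic 0.36, aligned with STAR 2.5.2b and placed on mm10, per the submitters' processing notes. The counting program, its annotation and its strand setting are not given in the sources used here. PCR copies were not told apart, so counts carry more than counting error.

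Symbols, biotypes and lengths came from GENCODE M21, which matched 45143 identifiers. Genes were tested with edgeR 4.0.16 under R 4.3.3, after filterByExpr and TMM scaling, in a robust quasi-likelihood fit of all 9 libraries whose only term was stage, with Benjamini-Hochberg adjustment over 17971 genes and a threshold of 0.05. The biological coefficient of variation was 19.9%. Values after ± are standard errors for fold changes and SD for ratios. Pair ratios of CPM + 1 were tested by exact permutation of an F statistic (Python 3.11.15, scipy 1.17.1). Length per gene was that of the principal protein-coding transcript, with total exon length as a check. Pseudogenes were matched with minimap2 2.31 at 90% identity over 50% of their length. Promoter sequences came from RefSeq's table for GRCm38.p6. The test scripts were tested on simulated data.

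The members, pairs and gene lists were chosen with earlier results of these data known. Named genes were those of the 10 pairs and, per role or list and step, the called gene with the largest change and the one with the largest in the opposite direction. Other members that are named were chosen after their values were seen. Alternatives were other scalings and filters, DESeq2 1.42.0, limma 3.58.1 (voom), only the stages compared, the replicate number as a block, each library left out, and, chosen after seeing the data, removal of a loess trend of length or of GC content per library and leaving out both libraries that stood apart.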

Additional observations from a re-analysis of the deposited data

How the results depend on the processing

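At E14.5 against E9.5, 3 members were called higher under all 21 alternatives and 43 to 53 were called lower. Among all genes, 22.2 to 36.6% were higher and 18.1 to 42.6% lower in these fits. The count of members higher at P60 against E14.5, 14 in the main test, was 23 with upper quartile scaling, 22 with DESeq2, and 12 to 22 when single libraries were left out, with 22 without P60 library 2. This count was 33 when E14.5 library 1 and P60 library 2 were both left out, an alternative chosen after seeing the data. Among all genes, 36.7% were higher in the main test, 40.3% with upper quartile scaling and 39.2% with DESeq2. With single libraries left out, 33.7 to 37.5% of all genes were higher, and without both libraries 38.7%. The count of members higher at P60 against E9.5, 7 in the main test, was 4 with the GC trend removed and 11 without both libraries, and 5 to 9 with single libraries left out. Among all genes, 42.0% were higher in the main test, 38.6% with the GC trend removed and 43.5% without both libraries. With single libraries left out, 39.9 to 42.9% of all genes were higher. Calls held under all alternatives for 44 of 49 members at E14.5 against E9.5, 27 of 36 at P60 against E14.5 and 45 of 53 at P60 against E9.5. Of the members not called in the main test, 10 of 15, 26 of 28 and 9 of 11 in these comparisons were called under some alternative. Most failures to pass thus depended on the processing or on the libraries kept. The share of all genes whose calls were lost or gained over these fits was not counted. With the length trend removed, the sign turned for Eif2b3 at P60 against E14.5 (-0.14), and at P60 against E9.5 for Eef1akmt2 (-0.29) and Eif1 (-0.06).

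The median log2 fold change of all genes was 0.03, -0.06 and 0.05 in the first step, the second step and the whole interval. It shifted from these values by -0.27, 0.03 and -0.27 with the length trend removed, by -0.27, 0.04 and -0.24 with the GC trend removed, by -0.01, 0.16 and 0.15 with upper quartile scaling, and by 0.09, -0.14 and -0.05 with library totals. The cause of these differences was not tested.

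The Eif2ak1 to Eif2ak4 ratio at P60 minus E9.5, 1.24 log2 units, was 1.24 with a replicate block, where its adjusted p was 0.056, and 1.13 to 1.45 with single libraries left out; the adjusted p was 0.05 without E9.5 library 3, at 1.13. Libraries with the same number correlated at -0.22 to 0.37 in their deviations from the stage means. Libraries with different numbers were not compared, so whether the numbers pair the samples was not tested. With the replicate block, 3 members were higher and 47 lower at E14.5 against E9.5, 17 and 22 at P60 against E14.5, and 7 and 47 at P60 against E9.5. The shares of all genes higher and lower in that fit were 34.8 and 32.7%, 37.8 and 40.2%, and 42.6 and 41.3%, in the same order.

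Depth limited Eif4e1b, Eif3j2 and Eif4ebp3, and the E9.5 level of Eef1a2. With 3 libraries per stage, of unstated animals, differences within their spread were not detectable.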
